A study of Mus musculus with 18 samples.

Results

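The 32 genes described here encode subunits of voltage-gated sodium channels, voltage-gated calcium channels and the hyperpolarization-activated HCN channels of mouse brain. They were all rows whose symbol begins with Scn and a digit, Cacna, Cacnb, Cacng or Hcn and a digit and that held at least 10 counts in 9 or more of 18 libraries. Of 23238 symbols, 44 carried such a name and 32 reached the minimum. They comprise 11 Scn genes, 11 Cacna genes, 4 Cacnb genes, 3 Cacng genes and 3 Hcn genes. The study measured how the transcriptome of hippocampus and cortex responds to city dust given through the nose in male C57BL/6 mice that were 7 weeks old at the start. In the short-term groups, urban particulate matter (UPM, the reference dust SRM 1648a) was given intranasally each day for 3, 5 or 7 days. In the long-term groups it was given on 2 occasions a week for 3, 8, 12, 16 or 20 weeks. Control mice received the phosphate-buffered saline in which the dust was suspended, and the labels do not say for how long. Mice of a group were combined as 1 RNA pool before 3' end sequencing, which leaves each tissue with short-term libraries at 3 times, long-term ones at 5 times and a single control. Short-term and long-term exposure therefore also differ in dosing rhythm, total dose and the age of the mice, and the spread within a class is that between exposure times rather than between mice.

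Sodium channels carry the upstroke of the action potential. Each has a pore-forming alpha subunit, and beta subunits adjust its gating and its place in the membrane. Calcium channels turn a change of voltage into calcium entry, which drives transmitter release, dendritic signalling and gene expression. Their alpha1 subunit forms the pore and sets the current type, the alpha2delta and beta subunits bring it to the membrane, and most gamma proteins of brain act instead as partners of AMPA-type glutamate receptors. HCN channels open on hyperpolarization and carry the current that paces firing and shapes dendritic integration.

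The sodium channel members were 7 alpha genes, among them Scn1a, Scn2a1 (Scn2a in current annotation), Scn3a, Scn7a, Scn8a and Scn9a, and 4 beta genes, among them Scn2b, Scn3b and Scn4b. The calcium channel members were 8 alpha1 genes, Cacna1a to Cacna1e and Cacna1g to Cacna1i, the 3 alpha2delta genes Cacna2d1 to Cacna2d3, the 4 beta genes Cacnb1 to Cacnb4 and the gamma genes Cacng2, Cacng3 and Cacng5. The HCN genes, among them Hcn2 and Hcn3, completed the set. Just below the minimum stood Cacna2d4 and Cacng4, each with 10 counts in 6 libraries and at most 16 counts. The other 10 symbols below the minimum were Cacna1f, the retinal L-type channel, Cacna1s, Scn4a, Cacng1 and Cacng6, which are genes of skeletal muscle, Scn10a and Scn11a, which belong to sensory neurons, Hcn4, the channel of the sinoatrial node, and Cacng7 and Cacng8. Cacng8 encodes an AMPA receptor partner of hippocampus in the mouse, yet held only 0 to 5 counts, so these counts do not measure it.

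Libraries held 5434067 to 8967430 counts, and levels are given as CPM, counts scaled to a common library size after TMM normalization. A level of 3 counts corresponds to 0.335 to 0.552 CPM. Reads came from the 3' end and levels were not divided by length, so a level is compared between libraries and never between genes. The file headers name the libraries in one manner for 3, 5 and 7 days and 3 weeks (early set, 8 libraries) and in another for the control and 8 to 20 weeks (control and late set, 10 libraries). The share of Rn45s, which encodes precursor ribosomal RNA, was 14.8% to 18.6% for early libraries and 7.75% to 12.9% for the others. The summed level of 6 long non-coding RNA genes held largely in the nucleus was 3209 to 6873 CPM in the early set and 13928 to 27088 CPM in the control and late set. All 8 hippocampal neuron markers were higher in hippocampus and 7 of 8 cortical neuron markers were lower there, as the tissue labels say.

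The members differed in how steady they were over the 9 libraries of a tissue. The median coefficient of variation was 24.0% in hippocampus and 25.4% in cortex. Scn3a, a sodium channel gene best known from the developing brain, was the steadiest in cortex at 8.67% and had 12.8% in hippocampus. Scn4b varied by 55.0% in hippocampus and 68.1% in cortex, and Cacng2 by 34.1% and 53.4% in the same tissues.

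Between the tissues, 15 of the 32 genes differed, 4 higher and 11 lower in hippocampus than in cortex. The higher ones were Scn3b, Cacng5, Cacna1h and Cacnb2. Those lower in hippocampus were Scn4b, Scn7a, Cacnb4, Cacng2, Cacng3, Scn1a, Cacna1i, Cacnb3, Scn2a1, Cacna1g and Cacna2d1. The test was the quasi-likelihood F test of edgeR with exposure time as a factor, fitted on all 18 libraries and adjusted over 14865 genes, of which 16.9% were called. By direction, 7.6% of all genes were called higher and 9.26% lower, against 12.5% and 34.4% of the members. The median log2 fold change was -0.10 over the members and -0.00 over all genes. With library sizes from total counts alone, 14 members were called, 4 higher and 10 lower, while over all genes the split turned to 1446 higher and 980 lower. In tissue RNA, fewer cells of a type and less RNA per cell cannot be told apart. Of 5 general neuron markers 4 were lower in hippocampus (median log2 fold change of the list -0.28), 4 of 5 astrocyte markers were higher, and 2 of 5 interneuron markers, Pvalb (-0.80 ± 0.11) and Vip (-1.11 ± 0.20), were lower, while Gad1 (-0.01), Gad2 (0.09) and Sst (-0.03) did not pass (median of the list -0.03). Of the oligodendrocyte precursor markers 2 of 3 were higher, and the oligodendrocyte, microglia, endothelium and mural cell lists had no called gene. Their part in the channel differences was not tested.

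**Figure D1:**
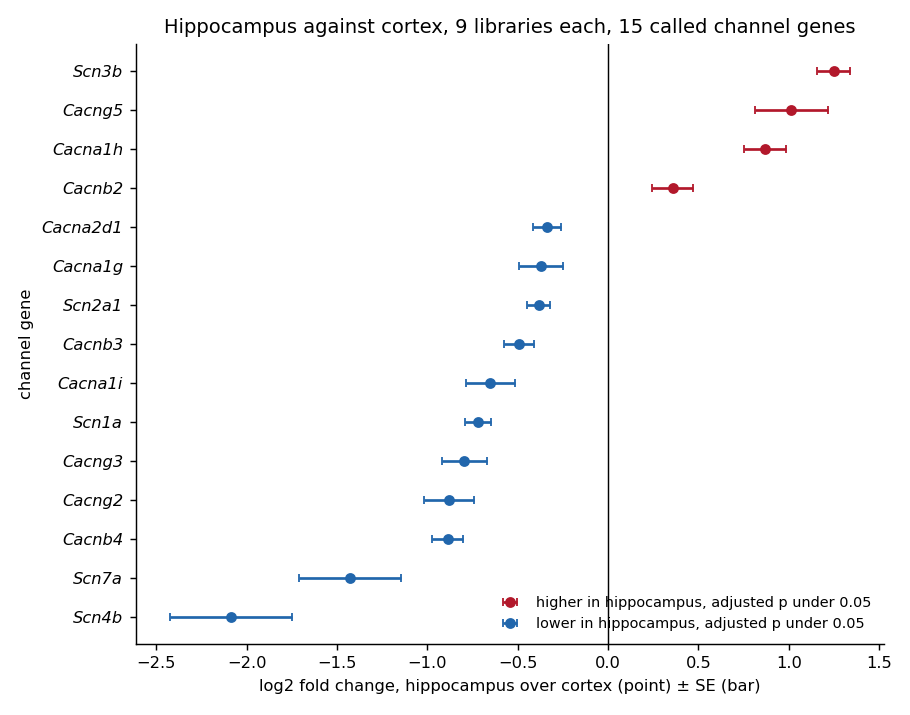
Log2 fold change of hippocampus over cortex for the 15 channel genes called between the tissues (points, with SE as bars), from 9 libraries per tissue. Red points are the 4 genes higher in hippocampus and blue points the 11 genes lower there at an adjusted p under 0.05. Scn3b stands at 1.25 and Scn4b at -2.09.

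Among the pore-forming sodium channel genes, 3 of 7 were lower in hippocampus and none was higher. Scn1a encodes the alpha subunit that parvalbumin interneurons rely on for fast firing (chromosome 2, 66270778 to 66440840, minus strand). Its lowest, median and highest levels were 82.7, 133 and 161 CPM in hippocampus and 146, 200.1 and 256 CPM in cortex. The ranges met only at the hippocampal libraries of 12 and 16 weeks (149 and 161 CPM) and the cortical libraries of 7 days and 20 weeks (146 and 161 CPM). At every exposure time and in the control, the hippocampal library was below the cortical one, and the difference passed the test (log2 -0.72 ± 0.07 SE, adjusted p = 2.38e-06). Scn2a1, the alpha subunit of the axon initial segment of excitatory neurons, ran at 421, 542 and 620.4 CPM in hippocampus and 524, 722 and 826 CPM in cortex, and was also lower in hippocampus (log2 -0.38 ± 0.06 SE, adjusted p = 0.000408). Its ranges overlapped through the cortical library of 5 days, the lowest of that tissue. Scn7a, the atypical sodium-sensing member of the family, rested on few reads, with 6 to 73 counts per library. It had 0.882, 2.10 and 2.91 CPM in hippocampus and 2.82, 4.90 and 9.67 CPM in cortex, with a fold of 0.371 (log2 -1.43 ± 0.28 SE, adjusted p = 0.00178). The tissues overlapped through the cortical library of 20 weeks, at the lowest of these cortical levels. For Scn8a, the main alpha subunit of mature axons, the difference was -0.05 ± 0.09, and for Scn3a 0.07 ± 0.07, neither past the threshold. Scn9a, better known from sensory neurons, did not pass either (0.09 ± 0.22).

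Scn3a, Scn2a1, Scn1a, Scn9a and Scn7a lie in this order on chromosome 2, with gaps of 53.1, 503, 39.2 and 38.5 kb (GENCODE positions on GRCm38, the assembly of mm10). Scn1a and Scn9a, 39.2 kb apart on the same strand, differed by -0.72 ± 0.07 and 0.09 ± 0.22. A second close pair, Scn2b and Scn4b, lies 8.32 kb apart on chromosome 9, and there Scn4b differed by -2.09 ± 0.34 while Scn2b had -0.11 ± 0.08. The difference between the members of a pair was not itself tested. RefSeq promoters of these 4 genes are shown so that the start regions of neighbours, 1 called and 1 not called in each pair, can be set side by side. Each runs 5′ to 3′ from 250 bases before to 50 bases after a RefSeq gene start on GRCm38.p6, with capitals for CCAAT boxes on either strand. For the chromosome 9 pair the GENCODE starts lie further upstream, at 45117782 for Scn2b and 45138395 for Scn4b. Most of the Scn4b sequence, its CCAAT box included, and part of the Scn2b sequence thus lie inside the GENCODE gene.
Scn1a (chr2:66440788-66441087, minus strand): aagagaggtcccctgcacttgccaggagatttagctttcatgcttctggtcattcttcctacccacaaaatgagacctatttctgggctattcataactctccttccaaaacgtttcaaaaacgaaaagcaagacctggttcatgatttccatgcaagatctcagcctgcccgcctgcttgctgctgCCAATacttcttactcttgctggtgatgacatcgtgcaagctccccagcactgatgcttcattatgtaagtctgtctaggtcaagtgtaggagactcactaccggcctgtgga
Scn9a (chr2:66634913-66635212, minus strand): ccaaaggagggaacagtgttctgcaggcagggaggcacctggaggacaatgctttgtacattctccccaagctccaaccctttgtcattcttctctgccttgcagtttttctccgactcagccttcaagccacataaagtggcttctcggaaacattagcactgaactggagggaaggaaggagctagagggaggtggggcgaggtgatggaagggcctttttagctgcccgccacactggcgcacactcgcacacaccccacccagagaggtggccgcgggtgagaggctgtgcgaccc
Scn2b (chr9:45117626-45117925, plus strand): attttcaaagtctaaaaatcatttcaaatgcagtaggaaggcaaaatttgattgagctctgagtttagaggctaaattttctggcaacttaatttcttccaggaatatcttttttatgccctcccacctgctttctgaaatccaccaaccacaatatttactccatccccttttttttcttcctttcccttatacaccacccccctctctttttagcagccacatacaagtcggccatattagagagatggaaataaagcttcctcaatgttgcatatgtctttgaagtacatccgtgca
Scn4b (chr9:45138374-45138673, plus strand): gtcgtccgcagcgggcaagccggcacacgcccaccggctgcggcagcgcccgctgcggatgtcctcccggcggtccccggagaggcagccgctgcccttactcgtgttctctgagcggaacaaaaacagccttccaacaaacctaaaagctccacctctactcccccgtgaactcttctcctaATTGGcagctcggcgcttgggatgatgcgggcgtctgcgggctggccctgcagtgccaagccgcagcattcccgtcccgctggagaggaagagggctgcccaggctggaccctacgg
The Scn4b sequence is 66.3% G and C with 26 CpG dinucleotides, and that of Scn2b 38.3% with 2. Scn1a has 47.3% and 5 CpG, and Scn9a 57.3% and 9 CpG. The motifs, 4 in number, were searched on both strands, the TATA box TATAAA, the GC box GGGCGG, the CCAAT box CCAAT and the cAMP response element TGACGTCA, none of which contains another. Scn1a and Scn4b hold 1 CCAAT box each and Scn2b and Scn9a no match to any of the motifs. Over the 34 promoters that RefSeq gives for 23 members, 23.5% held a CCAAT box, against 37.4% of all 32851 promoters. A GC box was in 41.2% of the members' promoters and 35.7% of all, a TATA box in 5.88% and 13.6%, and the cAMP response element in 0 of 34 and 1.79%. The members' promoters had a median of 60.3% G and C and 14.5 CpG, against 52.7% and 7 over all promoters.

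The sodium channel beta genes held both the highest and the lowest fold of the set. Scn3b, the gene of the beta3 subunit, which binds the pore without a covalent bond (chromosome 9, 40269217 to 40291618, plus strand), had 51.5, 64.3 and 109 CPM in hippocampus and 21.7, 30.5 and 35.0 CPM in cortex. Every hippocampal library lay above every cortical one, and the mean fold was 2.38 (log2 1.25 ± 0.09 SE, adjusted p = 9.56e-08). Scn4b encodes the beta4 subunit, linked to resurgent sodium current and abundant in striatal projection neurons (chromosome 9, 45138395 to 45154152, plus strand). It had 1.99, 6.93 and 15.2 CPM in hippocampus and 5.27, 27.5 and 71.3 CPM in cortex, a fold of 0.235 (log2 -2.09 ± 0.34 SE, adjusted p = 0.000293). In cortex it was 27.5 CPM in the control, 19.0, 71.3 and 5.27 CPM at 3, 5 and 7 days and 16.2, 53.3, 47.4, 50.4 and 10.9 CPM at 3, 8, 12, 16 and 20 weeks. The cortical libraries of 7 days and 20 weeks were within the hippocampal range, which ended at 15.2 CPM, and the other 7 above it. Scn2b, a beta subunit that is linked to the pore by a covalent bond, did not pass (-0.11 ± 0.08).

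Striatal marker genes moved with Scn4b over the cortical libraries. The summed level of 10 genes of projection neurons of the neighbouring striatum was 630.2 CPM in the cortical control, 297, 1611 and 263 CPM at 3, 5 and 7 days and 377, 1281, 1145, 954 and 260.4 CPM at 3, 8, 12, 16 and 20 weeks. The libraries of 5 days and of 8, 12 and 16 weeks stood highest in both measures. Over the 9 cortical libraries Scn4b and the marker sum gave a Pearson r of 0.94 and a Spearman rho of 0.95, and over the 9 hippocampal libraries -0.05 and 0.20, as a description of libraries that share a scaling. The marker sum was 115 to 279 CPM in hippocampus and 260.4 to 1611 CPM in cortex, and 9 of 9 tested markers were lower in hippocampus. No striatal marker was at 0 in every library, and Adora2a and Drd2 were at 0 in some. Without 5 days and 8 weeks, the times with the highest sums, the Scn4b difference was -1.72 ± 0.35 (adjusted p = 0.00412), with the cortical libraries of 12 and 16 weeks and their high sums still included. These times were chosen after the values were seen. The part of striatal tissue in the Scn4b level was not tested.

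**Figure D2:**
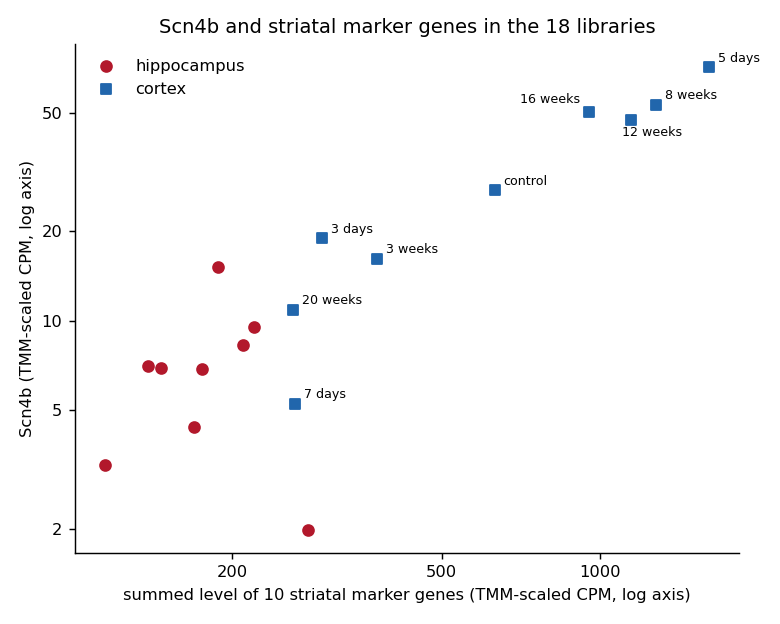
Level of Scn4b (vertical axis) against the summed level of 10 striatal marker genes (horizontal axis), both in TMM-scaled CPM on log axes, in 9 hippocampal (red circles) and 9 cortical libraries (blue squares, labelled by time). The cortical points run from 5.27 CPM at 7 days to 71.3 CPM at 5 days, and the highest 4 are those of 5 days and 8, 12 and 16 weeks.

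Of the calcium channel alpha1 genes, 1 of 8 was higher and 2 were lower in hippocampus over all libraries. All 3 belong to the low-voltage-activated T type, whose channels open near rest and drive burst firing. Cacna1h (chromosome 17, 25374285 to 25433783, minus strand) had 10.7, 19.8 and 29.6 CPM in hippocampus and 4.64, 13.4 and 15.1 CPM in cortex. At each time the hippocampal library was higher, although the tissue ranges overlapped through the low early libraries of hippocampus (log2 0.87 ± 0.12 SE, adjusted p = 4.96e-05). Exons of Tpsg1 on the other strand overlap the last kb of Cacna1h, and the strand setting of the counting is not stated. Cacna1i was lower in hippocampus (log2 -0.65 ± 0.14 SE, adjusted p = 0.00247), at 10.5 to 27.6 CPM there and 18.3 to 44.3 CPM in cortex. Cacna1g just passed (log2 -0.37 ± 0.12 SE, adjusted p = 0.0486), at 8.43 to 41.1 CPM in hippocampus and 13.4 to 46.6 CPM in cortex. Over all libraries the high-voltage-activated genes Cacna1a (P/Q type), Cacna1b (N type), Cacna1c and Cacna1d (L type) and Cacna1e (R type) did not pass. Their log2 fold changes were -0.16, 0.02, 0.24, 0.05 and 0.20.

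The auxiliary calcium channel genes moved in both directions. Cacna2d1, the binding site of gabapentin, was lower in hippocampus (log2 -0.34 ± 0.08 SE, adjusted p = 0.00439), whereas Cacna2d2 (-0.17 ± 0.16) and Cacna2d3 (-0.09 ± 0.14) did not pass. Cacnb4, the beta gene mutated in the ataxic lethargic mouse (chromosome 2, 52428320 to 52676831, minus strand), ran at 199, 240.4 and 445 CPM in hippocampus and 426, 507 and 606 CPM in cortex. The hippocampal library of 3 weeks was the only one of its tissue within the cortical range (log2 -0.89 ± 0.09 SE, adjusted p = 1.54e-06). Cacnb3 was lower as well, with 67.1, 86.7 and 109.8 CPM in hippocampus and 93.9, 126 and 155 CPM in cortex (log2 -0.49 ± 0.08 SE, adjusted p = 0.000483). Its highest hippocampal libraries, those of 16 and 20 weeks, reached into the cortical range. Cacnb2 was the one beta gene higher in hippocampus (log2 0.36 ± 0.11 SE, adjusted p = 0.0374), at 26.1, 39.5 and 49.9 CPM in hippocampus and 19.3, 30.8 and 38.6 CPM in cortex, and the ranges overlapped widely. Cacnb1 did not pass (-0.06 ± 0.08).

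All 3 gamma genes differed between the tissues. Cacng2, or stargazin, a partner that carries AMPA receptors to the synapse (chromosome 15, 77991748 to 78120028, minus strand), had 80.9, 150.3 and 214 CPM in hippocampus and 77.4, 323 and 487 CPM in cortex. Its cortical level below that of the highest hippocampal library came only from the early set (log2 -0.88 ± 0.14 SE, adjusted p = 0.000206). Cacng3, a second AMPA receptor partner, ran at 27.0, 42.6 and 70.2 CPM in hippocampus and 45.6, 81.4 and 95.5 CPM in cortex and was lower in hippocampus (log2 -0.80 ± 0.13 SE, adjusted p = 0.000236). Its highest hippocampal libraries were those of 3 weeks (70.2 CPM), 20 weeks (61.8 CPM) and 16 weeks (60.9 CPM). The same libraries had the highest sums of 8 cortical neuron markers in hippocampus, 1742, 1557 and 1905 CPM. The other 6 had 678 to 1217 CPM, and the cortical libraries 2685 to 4039 CPM. The part of cortical tissue in these Cacng3 levels was not tested. Cacng5, of the same protein family, rested on 25 to 202 counts per library. It ran at 4.41, 13.0 and 25.7 CPM in hippocampus and 2.99, 6.94 and 7.92 CPM in cortex and was higher in hippocampus (log2 1.01 ± 0.20 SE, adjusted p = 0.00165). Its highest hippocampal libraries were those of 5 days (25.7 CPM) and 8 weeks (22.1 CPM), and at 3 weeks it was below cortex.

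**Figure D3:**
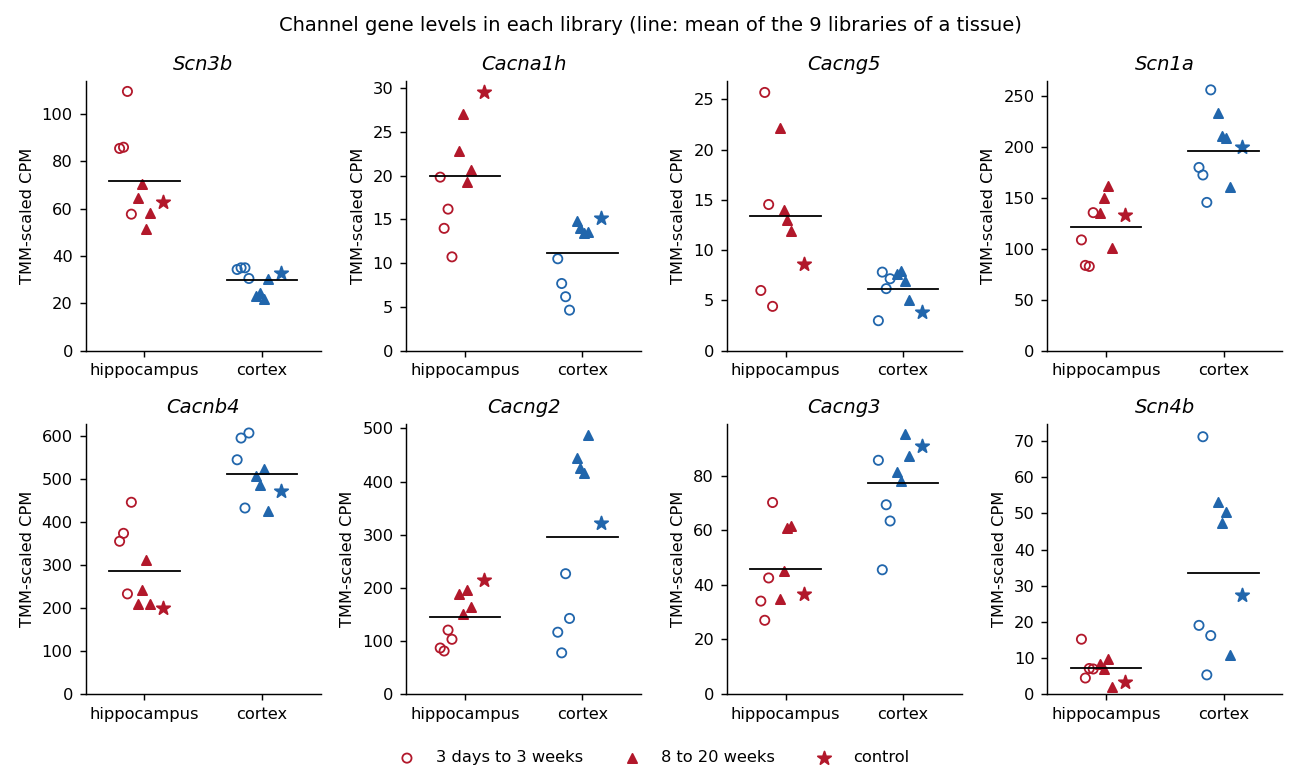
TMM-scaled CPM of 8 channel genes in each library, hippocampus (red) left of cortex (blue), with open circles for 3 days to 3 weeks, triangles for 8 to 20 weeks, stars for the control and a line at the mean of 9 libraries. Scn3b separates the tissues fully, and the cortical libraries of Scn4b spread from 5.27 to 71.3 CPM.

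No HCN gene passed between the tissues over all libraries. Hcn2, which is widespread in neurons, had 74.1, 90.8 and 111 CPM in hippocampus and 70.6, 110.0 and 179 CPM in cortex and came closest (log2 -0.36 ± 0.13 SE, adjusted p = 0.0704). DESeq2 and limma-voom called Hcn2 beside the same 15 genes. Hcn3 stood at 3.56 to 7.27 CPM in hippocampus and 2.38 to 8.96 CPM in cortex (0.22 ± 0.24), and its last kb overlaps exons of Pklr on the other strand.

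The tissue difference was also fitted within each library set. Within the control and late set 20 members were called, 5 higher and 15 lower (20.1% of all genes), and within the early set 6, 2 higher and 4 lower (4.67% of all genes, 2.4% higher and 2.27% lower). Cacna1c, Cacna2d2, Cacna2d3, Hcn2 and Scn2b were among those called within the control and late set but not over all libraries. The genes called in both sets were 5, which is 25% of the 20 and 83.3% of the 6, namely Scn3b, Cacna1h, Cacnb4, Scn1a and Scn7a. Scn3b had 1.31 ± 0.16 within the early set and 1.21 ± 0.11 within the control and late set, and Scn1a -0.86 ± 0.12 within the early set and -0.59 ± 0.07 within the control and late set. Larger gaps were seen for Cacng2, with -0.43 ± 0.15 within the early set and -1.21 ± 0.12 within the control and late set, and Hcn2, with 0.07 ± 0.13 within the early set and -0.68 ± 0.13 within the control and late set. Scn4b had -1.20 ± 0.51 within the early set and -2.68 ± 0.12 within the control and late set. The difference between the sets in the tissue effect, early minus control and late, was 0.73 ± 0.19 for Hcn2 and 0.75 ± 0.21 for Cacng2, which were among the members with the smallest p. No member and 0% of 14865 genes passed this test in edgeR, while 8 members and 1636 genes had a p under 0.05 before adjustment. DESeq2 called 52 genes and no member. In cortex, Hcn2 was 81.7, 82.3 and 70.6 CPM at 3, 5 and 7 days and 110.0 CPM at 3 weeks, against 101 CPM in the control and 179, 156, 144 and 158 CPM at 8, 12, 16 and 20 weeks. In hippocampus the same gene stayed between 74.1 and 111 CPM in all 9 libraries.

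Partners of these channels and other calcium genes differed between the tissues as well. Of 30 tested partner genes 5 were higher and 7 lower in hippocampus, where 7.6% of all genes were called higher and 9.26% lower. Fgf13 (0.64 ± 0.07), an intracellular sodium channel partner, was higher, and its relative Fgf12 (-0.70 ± 0.07) lower. Cachd1, an alpha2delta-like protein (1.47 ± 0.16), and Stac, a calcium channel adaptor (4.02 ± 0.46), were higher. Of 27 tested calcium-handling genes 9 were higher and 6 lower. The 4 with the smallest p were all higher, namely the exchanger Slc24a3 (0.90 ± 0.07), the calcium pump Atp2b3 (0.76 ± 0.07), the store-operated channel Orai2 (1.22 ± 0.13) and the ryanodine receptor Ryr3 (0.99 ± 0.11).

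Short-term UPM against control asks what the first week of dosing does. Of 32 channel genes 4 were lower in the 6 short-term libraries than in the 2 control libraries and none was higher, where 2.51% of 14209 genes were called lower, 1.84% higher and 4.35% in all (edgeR, tissue as covariate). They were Cacng2, Cacna1d, Cacna1b and Cacna1a, the AMPA receptor partner and the pores of L-, N- and P/Q-type channels. All short-term libraries belong to the early set and both controls to the other, so exposure and library set cannot be told apart here. Cacng2 had 86.5, 80.9 and 120.2 CPM at 3, 5 and 7 days in hippocampus, against 214 CPM in its control, and 116, 77.4 and 226 CPM in cortex, against 323 CPM (log2 -1.21 ± 0.27 SE, adjusted p = 0.0213). Every short-term library was below the control of its tissue. Cacna1d had 38.0, 37.0 and 38.1 CPM in hippocampus, against 66.8 CPM in the control, and 55.9, 33.4 and 35.2 CPM in cortex, against 67.4 CPM (log2 -0.79 ± 0.20 SE, adjusted p = 0.0381). The last kb of Cacna1d overlaps exons of Chdh on the other strand. Cacna1b showed 65.7, 57.9 and 73.3 CPM in hippocampus, against 105 CPM, and 84.1, 48.6 and 61.7 CPM in cortex, against 107 CPM (log2 -0.73 ± 0.19 SE, adjusted p = 0.0417). For Cacna1a the levels were 202, 190.3 and 283 CPM in hippocampus, against 343 CPM, and 282, 196 and 171 CPM in cortex, against 369.7 CPM (log2 -0.72 ± 0.19 SE, adjusted p = 0.0479). In these 3 genes too, short-term libraries lay below the control in both tissues. The share of all genes with this pattern was not counted.

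These calls rest on 2 control libraries. Without the hippocampal control no channel gene was called, with 42 of 14864 genes called in all, and without the cortical one none, with 37 of 14945, so calls fell over the whole table. Of the channel genes 1 was called without the hippocampal library of 3 or 5 days or the cortical library of 5 or 7 days. In that order these fits called 550 of 14096, 520 of 14111, 439 of 14088 and 567 of 14124 genes. With all libraries it was 618 of 14209. With total counts alone 8 were called, all lower, on a scale where the median of all genes is -0.18. The median of the members was -0.30, against -0.01 over all genes. Next in order came Cacna1h (-0.89 ± 0.26, adjusted p = 0.0694) and Cacna1g (-1.10 ± 0.33, adjusted p = 0.0786). No sodium channel or HCN gene passed. Of 30 partner genes Calm2, a calmodulin gene, was higher (0.59 ± 0.16). Of 27 calcium-handling genes the ryanodine receptor genes Ryr3 (-1.42 ± 0.23) and Ryr1 (-2.13 ± 0.55) were lower. Over all genes 1.84% were called higher and 2.51% lower in this comparison. Among the 6 long non-coding RNA genes 5 were lower as well, Miat by -2.87 ± 0.18, and of the neuron markers the interneuron gene Sst (-0.85 ± 0.15) was lower and 0 of 5 general ones was called. The lists of the other cell types had no called gene. Their part in the channel values was not tested.

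**Figure D4:**
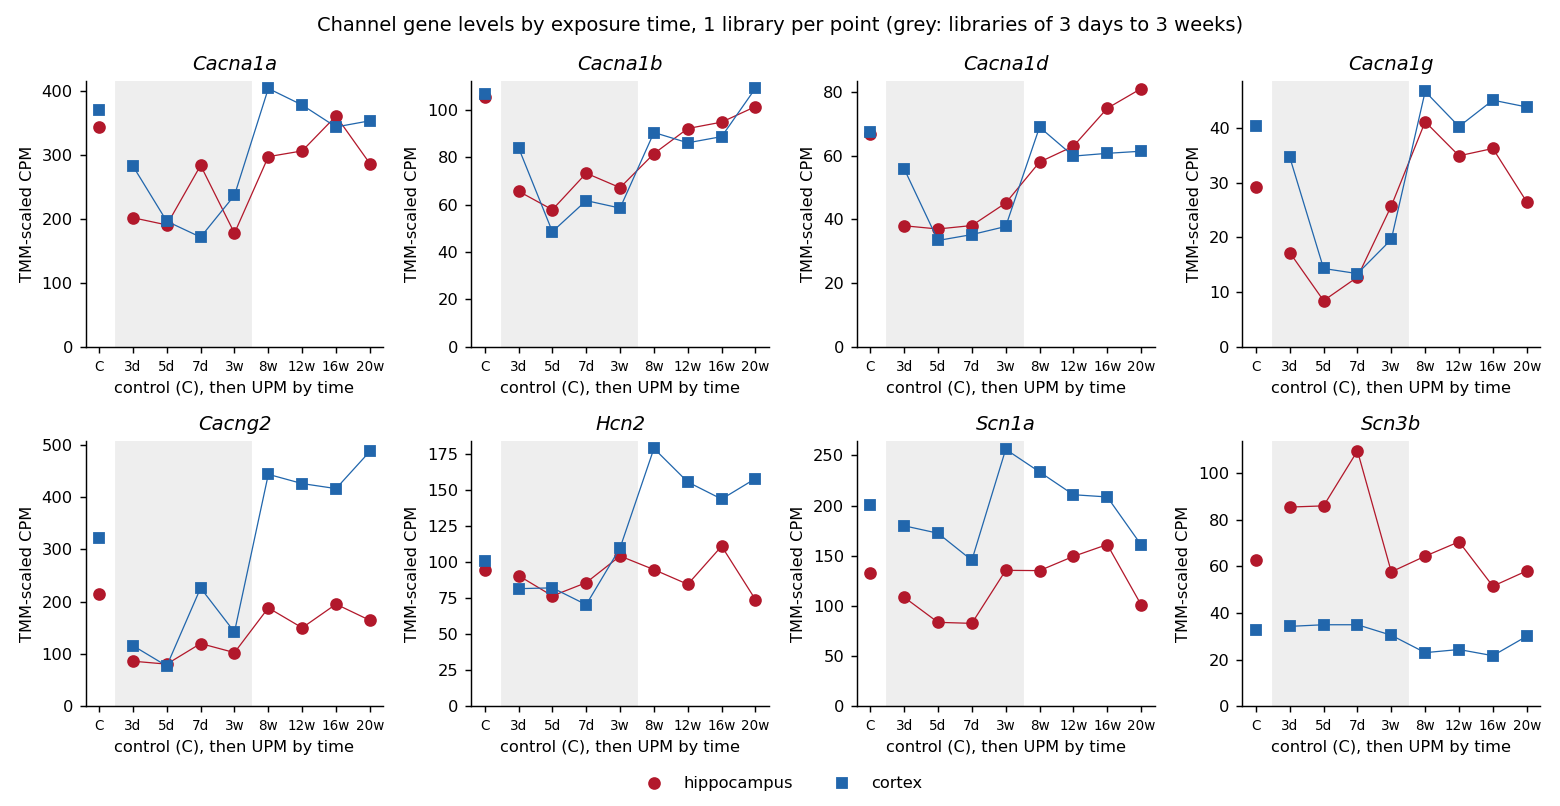
TMM-scaled CPM of 8 channel genes in the control (C) and by time of UPM exposure, in hippocampus (red circles) and cortex (blue squares), 1 library per point. Libraries of 3 days to 3 weeks stand on grey. Cacng2 in cortex lies between 77.4 and 226 CPM on grey and between 323 and 487 CPM off it.

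Long-term against short-term UPM is the comparison by length of exposure, with controls left out. Of the channel genes, 10 were higher and 1 was lower in the 10 long-term than in the 6 short-term libraries, where 8.39% of 13943 genes were called higher and 7.33% lower (15.7% in all). The members' median was 0.20 and that of all genes 0.01. Of 8 alpha1 genes 5 were among the higher ones, Cacna1g, Cacna1d, Cacna1i, Cacna1a and Cacna1b, together with Cacng2, Cacnb3, Hcn2, Scn1a and Scn9a. Scn3b was the only one lower. The comparison shares its short-term libraries with the one against control, so the same 4 genes moving the opposite way is no separate observation.

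Cacna1g, the T-type pore prominent in thalamic relay neurons, had the highest fold. Its lowest, median and highest levels were 19.6, 38.2 and 46.6 CPM in long-term and 8.43, 13.8 and 34.6 CPM in short-term libraries (log2 1.12 ± 0.23 SE, adjusted p = 0.00638). In hippocampus every long-term library lay above every short-term one, and in cortex the library of 3 weeks (19.6 CPM) fell below that of 3 days (34.6 CPM). Cacng2 ran at 103, 192 and 487 CPM in long-term and 77.4, 101 and 226 CPM in short-term libraries (log2 1.09 ± 0.25 SE, adjusted p = 0.011). Only its 3-week libraries overlapped the short-term ones in each tissue. Cacna1d had 45.1, 58.0, 62.9, 74.8 and 81.0 CPM at 3, 8, 12, 16 and 20 weeks in hippocampus, against 38.0, 37.0 and 38.1 CPM at 3, 5 and 7 days. In cortex it had 37.8, 68.9, 59.8, 60.7 and 61.4 CPM at the long and 55.9, 33.4 and 35.2 CPM at the short times (log2 0.62 ± 0.15 SE, adjusted p = 0.0126). Cacna1i, the third T-type gene, had 23.1, 19.4, 19.9, 27.6 and 20.9 CPM at the long times in hippocampus, against 17.8, 10.5 and 13.2 CPM at the short ones. In cortex it had 18.9, 44.3, 40.0, 36.7 and 34.8 CPM at the long and 30.7, 23.4 and 18.3 CPM at the short times (log2 0.60 ± 0.17 SE, adjusted p = 0.0231). For both genes the hippocampal groups did not overlap, while the cortical ones did. Cacna1a, the main channel of fast transmitter release, had 177, 325 and 403 CPM in long-term and 171, 199 and 283 CPM in short-term libraries (log2 0.50 ± 0.15 SE, adjusted p = 0.034). At 3 weeks the gene was at 177 CPM in hippocampus, below its short-term libraries, and at 237 CPM in cortex, among them.

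Scn1a followed another course. It had 109, 83.7 and 82.7 CPM at 3, 5 and 7 days in hippocampus and 136, 135, 149, 161 and 101 CPM at 3, 8, 12, 16 and 20 weeks. In cortex it had 179.8, 172 and 146 CPM at the 3 short times and 256, 233, 211, 209 and 161 CPM at the 5 long ones. The 3-week library lay within the range of the later ones in hippocampus and above them in cortex, and that of 20 weeks was the lowest long-term library in both tissues and lay within the short-term range (log2 0.47 ± 0.11 SE, adjusted p = 0.013). Hcn2 was higher after long-term exposure (log2 0.53 ± 0.14 SE, adjusted p = 0.0179), with 74.1, 111 and 179 CPM against 70.6, 82.0 and 90.8 CPM after short-term exposure. Its groups overlapped in hippocampus and not in cortex. Scn9a, the pain-linked sodium channel gene, rested on few reads, with 3.23, 5.66 and 9.53 CPM in long-term and 1.32, 3.03 and 4.30 CPM in short-term libraries (log2 1.03 ± 0.32 SE, adjusted p = 0.0349). Cacnb3 (log2 0.35 ± 0.11 SE, adjusted p = 0.0376) and Cacna1b (log2 0.42 ± 0.13 SE, adjusted p = 0.04) completed the higher genes. Scn3b had 85.3, 85.8 and 109 CPM at 3, 5 and 7 days in hippocampus and 57.6, 64.3, 70.5, 51.5 and 58.0 CPM at 3, 8, 12, 16 and 20 weeks. In cortex the same times gave 34.3, 35.0 and 35.0 CPM and 30.5, 23.0, 24.4, 21.7 and 30.0 CPM. Long-term and short-term libraries of Scn3b did not overlap in either tissue (log2 -0.53 ± 0.10 SE, adjusted p = 0.00505).

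The 2 libraries of 3 weeks are long-term by label and early by set, and they allow the classes to be split. Without them 15 channel genes were called, 14 higher and 1 lower, the same 11 and Cacna1h (0.60 ± 0.14), Cacna2d2, Cacng3 and Scn8a. Over all 13842 genes 15.7% were called higher and 16.9% lower (32.6% in all). In that fit all long-term libraries are of the control and late set and all short-term ones of the early set. Length of exposure and library set cannot be told apart in it. Among early libraries, those of 3 weeks set against 3 to 7 days gave no called member and 0% of 14036 genes in edgeR, with 4 members and 606 genes at a p under 0.05 before adjustment, and no member called by DESeq2 or limma-voom. There Cacna1g differed by 0.49 ± 0.38, Cacng2 by 0.05 ± 0.29, Cacna1d by 0.05 ± 0.22 and Cacna1a by -0.11 ± 0.21. The 3 members with the smallest p were Scn1a (0.58 ± 0.15), Hcn2 (0.39 ± 0.15) and Scn3b (-0.45 ± 0.18). With library set as a further covariate no channel gene was called (1 of 14799 genes in all), and Cacna1a (-0.10 ± 0.17) and Cacna1b (-0.05 ± 0.16) changed sign. Scn1a then had 0.60 ± 0.16 (adjusted p = 0.293) and Scn3b -0.44 ± 0.16 (adjusted p = 0.434). All short-term libraries are early, so in this fit the length term rests on the 3-week libraries set against them. It largely repeats the comparison of 3 weeks with 3 to 7 days.

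**Figure D5:**
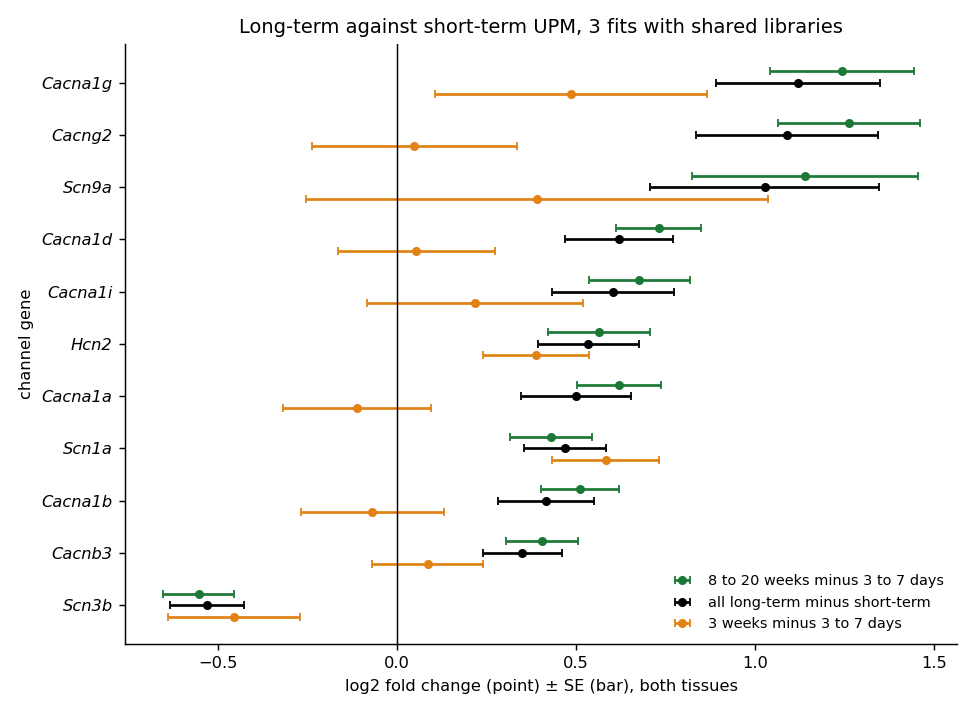
Log2 fold change ± SE of the 11 channel genes called between long-term and short-term UPM (black), beside 8 to 20 weeks minus 3 to 7 days (green) and 3 weeks minus 3 to 7 days (orange), both tissues together. For Cacng2 the green value is 1.26 and the orange one 0.05, and for Scn1a 0.43 and 0.58.

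In one tissue at a time, Cacna1g was the one gene called in hippocampus (1.38 ± 0.25) among 38 called of 13908 genes, and none was called in cortex, nor any of 13762 genes there. In cortex Cacng2 had 1.45 ± 0.39 and Hcn2 0.93 ± 0.16. Leaving out 1 library left 7 to 13 channel calls, and 1286 to 3537 calls over all genes. The lowest channel count, 7, came without hippocampal 5 days or 16 weeks or cortical 5 days, 7 days, 8 weeks or 16 weeks. On total counts alone 12 genes were called, 11 higher and 1 lower, while the median of all genes shifted to 0.15. Limma-voom with exposure time as a random block called 7, 5 higher and 2 lower, and limma-voom without it 12, 10 higher and 2 lower. Among the 6 long non-coding RNA genes 5 were higher in long-term libraries, Miat by 2.35 ± 0.40, and Rian was at -0.02. General neuron markers gave 0 calls of 5. Of the 5 interneuron markers Sst was higher (0.46 ± 0.15), and of 8 hippocampal neuron markers 2 were lower (median of the list -0.33). Of 3 red blood cell genes 2 were lower (median -0.74), and 1 of 5 astrocyte and 1 of 5 microglia markers was lower. Of 7 thalamus and habenula markers (median 0.49) and 4 endothelium markers 1 each was higher, and the other marker lists had no called gene. Their part in the channel values was not tested. Over all genes 15.7% were called, 8.39% higher and 7.33% lower. Of 29 partner genes 2 were higher and 3 lower. Unc79 of the sodium leak complex (0.46 ± 0.13) and Ank3, the scaffold of the axon initial segment (0.30 ± 0.09), were higher. Fgf13 (-0.35 ± 0.10) and Scnm1 (-0.48 ± 0.15) were lower. Of 27 calcium-handling genes 3 were higher and 3 lower, among them Ryr3 (1.07 ± 0.24), Ryr1 (1.66 ± 0.45) and the exchanger Slc8a3 (0.88 ± 0.22), all higher, and Orai2 (-0.53 ± 0.15).

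Within the control and late set, the 8 libraries of 8 to 20 weeks gave no called member against the 2 controls, nor any of 14465 genes (0%). Before adjustment 2 members and 676 genes had an edgeR p under 0.05, and neither DESeq2 nor limma-voom called any. Cacng5 had 22.1, 14.0, 13.0 and 11.9 CPM at 8, 12, 16 and 20 weeks in hippocampus, against 8.65 CPM in the control, and 7.63, 7.92, 6.94 and 5.01 CPM in cortex, against 3.81 CPM (log2 0.84 ± 0.26 SE). All 8 were above their control. Cacna1c, the main L-type pore of brain, had 35.0, 31.8, 33.4 and 46.7 CPM in hippocampus, against 48.5 CPM. In cortex it had 28.2, 28.4, 25.9 and 28.5 CPM, against 35.6 CPM (-0.38 ± 0.13), with all 8 below their control. Cacng5 and Cacna1c were picked among the members with the smallest p, and each tissue has a single control. The share of all genes with every late library on one side of its control was not counted. Cacng2, lower at short times, had 444, 426, 416 and 487 CPM at 8, 12, 16 and 20 weeks in cortex, against 323 CPM in the control, and 188, 150.3, 195 and 165 CPM in hippocampus, against 214 CPM. The tissue difference in this change, hippocampus minus cortex, was -0.76 ± 0.20 for Cacng2 and -0.72 ± 0.25 for Hcn2 and was tested after these values were seen. Neither passed (adjusted p = 0.465 and 0.639), where 0.106% of 15037 genes did.

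Over 8 to 20 weeks the slope was tested per 10 weeks, and no channel gene passed in edgeR, where 0.286% of 13968 genes did (0.0143% with a positive and 0.272% with a negative slope). Before adjustment 11 members had a p under 0.05, as did 1367 of all genes tested. Of the marker lists only the oligodendrocyte one had a called gene. Cacna2d2, an alpha2delta subunit gene mutated in the ducky mouse, had 81.9, 47.4, 52.4 and 32.1 CPM at 8, 12, 16 and 20 weeks in hippocampus and 72.7, 62.6, 71.1 and 46.6 CPM in cortex. Its slope was -0.71 ± 0.16 (adjusted p = 0.141), and DESeq2 called it (adjusted p = 0.00448), while limma-voom called none. All 6 oligodendrocyte markers fell over the same weeks, with sums of 6339, 4389, 4009 and 1711 CPM in hippocampus and 5331, 3725, 3684 and 2613 CPM in cortex, and their part in this slope was not tested. Cacna2d3 (-0.39 ± 0.10) and Cacng5 (-0.63 ± 0.18) were next by p, with 48.8, 47.9, 47.5 and 39.8 CPM and 22.1, 14.0, 13.0 and 11.9 CPM at the 4 times in hippocampus. In cortex the 2 genes had 78.8, 63.8, 61.5 and 48.0 CPM and 7.63, 7.92, 6.94 and 5.01 CPM.

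All 16 UPM libraries together gave no called channel gene against the 2 controls, nor any of 14865 genes (0%), in edgeR. Before adjustment no member had a p under 0.05 there, against 272 genes, and neither DESeq2 nor limma-voom called any. The smallest p were those of Cacna1b (-0.43 ± 0.22), Cacna1h (-0.59 ± 0.31) and Cacna1c (-0.41 ± 0.26). UPM libraries of Cacna1b held 48.6 to 84.1 CPM after short-term and 58.6 to 109 CPM after long-term exposure, against 105 CPM in the hippocampal and 107 CPM in the cortical control. Cacna1h had 14.0 to 19.8 CPM after short-term and 10.7 to 27.1 CPM after long-term exposure in hippocampus, against 29.6 CPM in the control. In cortex it had 6.17 to 10.5 CPM and 4.64 to 14.8 CPM, against 15.1 CPM, so each UPM library was below its control. How many of all genes share this pattern was not counted. Cacna1c had 18.2 to 50.7 CPM after short-term and 18.8 to 46.7 CPM after long-term exposure in hippocampus, against 48.5 CPM in the control. In cortex it had 21.7 to 36.3 CPM and 25.9 to 34.7 CPM, against 35.6 CPM.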

How the data were processed

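Libraries were made with a 3' mRNA kit from pooled RNA, and the authors deposited unnormalized read counts for each gene symbol. Per the submitters' processing notes, Bowtie2, bedtools and edgeR were used on the mouse build mm10. Versions, annotation, strand setting and handling of multiply mapped reads are not given in the sources used here. Symbols turned into dates by a spreadsheet (27, in 2 files) were restored from row order, and counts of repeated symbols were summed. All comparisons were fitted with edgeR 4.0.16 (glmQLFit and glmQLFTest, R 4.3.3) on the whole table, with filterByExpr, TMM scaling and Benjamini-Hochberg adjustment at 0.05. Only the comparison of tissues and that of long-term with short-term UPM were also run on simulated counts, with the same dispersion for every gene. SE is the log2 fold change divided by the square root of F. Libraries of different times served as replicates, so a p-value reflects just the spread among these libraries, which may be technical. Every pair of libraries differed beyond sampling noise (chi-squared per degree of freedom at least 4.86). Of 32 members, 32 passed the filter in every comparison. Tissue was a covariate, or exposure time in the comparison of tissues. Depths of 5434067 to 8967430 counts and the Wilson intervals of the Rn45s shares (95%, within 0.031 percentage points) cover counting error only. Alternatives were DESeq2 1.42.0, limma-voom (limma 3.58.1), RLE size factors, scaling by total counts alone, all genes unfiltered, genes averaging 50 counts or more, each library left out, exposure time as a block, each tissue or library set alone and the set as a covariate. The members, the partner list, the calcium-handling list and 15 marker lists were chosen with earlier results of these data known. Values per library are given for at most 8 called members in each direction, or for the 3 with the smallest p. Positions are from GENCODE M21 and promoters from RefSeq, both on GRCm38. Fits without 3 weeks, without 5 days and 8 weeks, without 3, 16 and 20 weeks, of 1 tissue against its control and of the tissue difference in late exposure were chosen after seeing the data. A few members are counted but not reported by name here.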

Additional observations from a re-analysis of the deposited data

Results flagged for a closer look

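Within each tissue the 5 long-term libraries of every channel gene were searched for 1 library far from the other 4, which gave 5 results in 64 groups of 5 libraries. Chance alone gives such a result in about 1 of 20 groups. All 5 were in cortex, and 4 of them concern the library of 3 weeks, the only long-term library of that tissue in the early set. Cacng2, the AMPA receptor partner, had 142 CPM at 3 weeks and 416 to 487 CPM at 8 to 20 weeks. Cacna1g, a T-type calcium channel gene, had 19.6 CPM at 3 weeks and 40.2 to 46.6 CPM later. Cacna1h, also of the T type, had 4.64 CPM at 3 weeks and 13.4 to 14.8 CPM later. Cacnb1, a calcium channel beta gene, had 70.9 CPM at 3 weeks and 115.9 to 131 CPM later. The fifth was Scn9a, a sodium channel gene of sensory neurons, with 9.16 CPM at 8 weeks and 4.11 to 5.49 CPM at 3, 12, 16 and 20 weeks.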

How the results depend on the processing

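Between the tissues 13 to 17 members were called when each time was left out in turn. With the other tools, scalings and filters it was 14 to 16, except the mean of 50 counts (13). Over all genes these fits called, in the same order, 1912 to 2458, 2426 to 2805 and 2274. Within the early set 6 members were called, on 8 libraries. Cacna1g and Cacnb2 lost the call most often among the 15, in 14 and 9 alternatives. For short-term UPM against control, 8 members were called with total counts alone and 0 to 6 with 1 library left out (0 without either control, 1 without the hippocampal library of 3 or 5 days or the cortical one of 5 or 7 days). For long-term against short-term UPM the count was 7 to 13 with 1 library left out (7 without 5 days or 16 weeks of either tissue, or 7 days or 8 weeks of cortex), 7 in limma-voom with exposure time as a random block (12 in limma-voom without it), 1 in hippocampus alone, 0 in cortex alone and 0 with library set as a covariate, where Cacna1a (-0.10) and Cacna1b (-0.050) reversed. Within a tissue fewer libraries were tested, and with the covariate the long-term side rests on the libraries of 3 weeks alone. For the slope over weeks DESeq2 called 1 member, Cacna2d2. UPM against control, 8 to 20 weeks against control, 3 weeks against 3 to 7 days and the difference of the tissue effect between sets gave 0 members in every alternative run. Over all genes edgeR called 618 in short-term UPM against control, where DESeq2 called 1050 and limma-voom 1013. It called 40 for the slope, against 111 by DESeq2, 25 with total counts alone, 62 unfiltered, 0 in hippocampus and 40 in cortex, and 0 to 71 with 1 library left out. The difference between sets gave 0 in edgeR, 52 in DESeq2 and 11 unfiltered, and 3 weeks against 3 to 7 days gave 0, 8 and 11. Late exposure gave 0 over both tissues, 3 in hippocampus and 7 in cortex, and its tissue difference 16 in edgeR, 41 in DESeq2 and 3 in limma-voom. Long-term against short-term UPM gave 2192, against 1286 to 3537 with 1 library left out, 38 in hippocampus, 0 in cortex and 1 with the set as a covariate. The tissues gave 2507, against 656 within the early set and 1629 without the block.

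The labels link same-time libraries of both tissues by their time alone. Whether the same mice gave both tissues is not stated in them. Once the mean of each tissue and library set was taken off, same-time libraries correlated at -0.14 to 0.16 over 13452 genes. Those of different times correlated at -0.13 to 0.11, so the numbers alone give no pairing. The tissue comparison nevertheless has time as a factor, and without this block it gave 12 members. For short-term UPM against control limma-voom gave 6 members with time as a random block and 6 without. With the block it gave 0 for UPM against control, 8 to 20 weeks against control, 3 weeks against 3 to 7 days and the slope, as without it. Depth limits Scn7a, Scn9a and Hcn3, with at most 87 counts in a library.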
